A study of Mus musculus with 6 samples.

Results

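Border macrophages, monocytes and neutrophils were followed through 10 of their marker genes among the 23057 genes of a whole-brain expression table. The 10 genes were chosen by gene symbol, whatever their level, as 5 genes of perivascular and meningeal macrophages (Mrc1, Cd163, Lyve1, Pf4 and Ms4a7), 2 of monocytes (Ly6c2 and Lyz2) and 3 of neutrophils (S100a8, S100a9 and Ngp). All 10 were in the table. The irradiated group was 3 C57BL/6 mice that received cranial X-ray irradiation through a collimator, to a total dose of 10 Gy, and the control group was 3 mock-irradiated C57BL/6 mice. Brains were taken 30 days after exposure, after perfusion with PBS, and the study is about senescence that radiation induces in the brain around tumours, and the labels of these mice name no tumour. Each library is called by its group and replicate number. Levels are in FPKM, a unit that scales fragments by transcript length and library size and so allows levels of different genes to be compared.

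The brain holds several kinds of resident macrophage. Microglia lie within the tissue, whereas border macrophages sit in the meninges, around vessels and in the choroid plexus, where they take up debris and plasma proteins through scavenger receptors. Monocytes and neutrophils circulate in blood and in the bone marrow of the skull, and in healthy brain tissue they are rare, so their RNA in a brain extract can come from the vessels, the meninges or adherent marrow as well as from cells inside the tissue.

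At 30 days, Lyz2 was the only 1 of the 10 genes called different between the groups, and it was higher in the irradiated brains. Pf4 and Ms4a7 were also higher in each irradiated library than in any mock library, but did not pass the adjustment. The scavenger receptor genes Mrc1, Cd163 and Lyve1 were not called. The neutrophil genes S100a8, S100a9 and Ngp differed among the irradiated brains, with the highest value of all 6 libraries in irradiated 1 and the lowest values in irradiated 2 and irradiated 3. Over all genes, 3.48% of the 14585 genes tested were called higher and 4.24% lower (limma, adjusted p under 0.05). Of the 10 genes, 7 had the mean of 0.5 FPKM needed for the test. Of these 1 was called higher and 0 lower, and with unadjusted p below 0.05 the limma counts were 3 higher and 0 lower, where 11.7% of all genes tested were higher and 13.9% lower. Counts at this unadjusted threshold in the lists that follow are to be read against these shares. Ms4a7 reached the filter through its irradiated values.

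**Figure D1:**
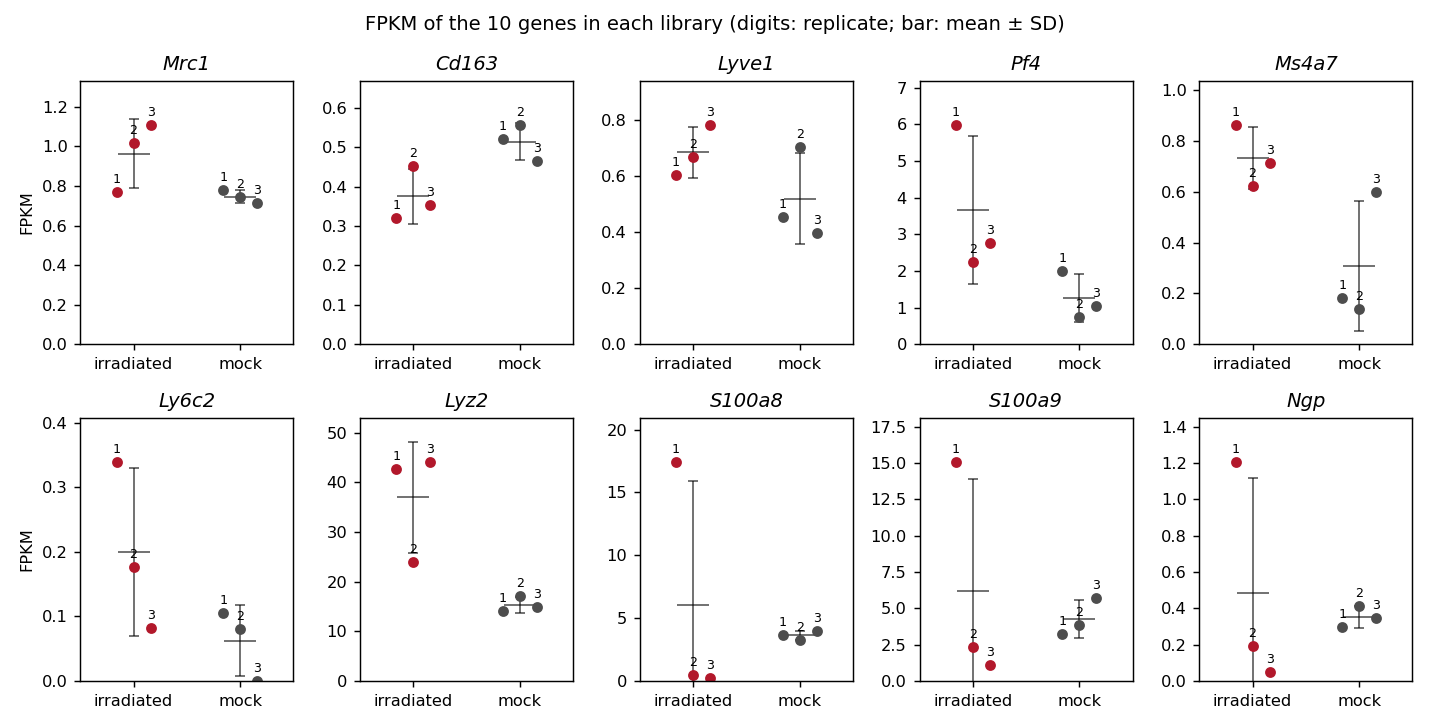
FPKM of each of the 10 genes (y axis, a separate scale from 0 for each gene) in the irradiated and the mock group, with 1 point per library labelled by its replicate number; the bar is the mean and the whiskers the SD of 3 libraries, not drawn below 0. Lyz2, Pf4 and Ms4a7 are higher in all 3 irradiated libraries, while the neutrophil genes are high in irradiated 1 and low in irradiated 2 and 3.

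A few facts of the libraries bear on these genes. The libraries are labelled whole brain, yet of 15 cerebellum genes 14 were called lower and 1 higher in the irradiated group, and 6 of 10 hippocampus genes were called higher and 0 lower (8 and 0 with unadjusted p below 0.05). Gabra6 and Fat2 of the cerebellum genes reached the filter only through their mock values, and Dsp and Lct of the hippocampus genes only through their irradiated values. The summed level of the cerebellum list was 540.1 to 829.6 FPKM in irradiated and 1589 to 2207 FPKM in mock libraries, so the regional makeup of the extracts and irradiation cannot be told apart. Libraries also differed with transcript length. Among the 858 tested genes with transcripts under 1000 bases, the median level stood 0.35 above the mean of the 6 libraries in irradiated 1, 0.18 below it in irradiated 2 (-0.18) and 0.12 above it in irradiated 3, against -0.27, -0.11 and 0.12 in mock 1, 2 and 3 (log2 scale). Among the 4778 genes of 4000 bases and over the order turned round, with -0.27 in irradiated 1 and 0.16 in mock 1. The transcripts of S100a8, S100a9, Pf4 and Ly6c2 fall in the shortest class and those of Mrc1 and Cd163 in the longest.

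**Figure D2:**
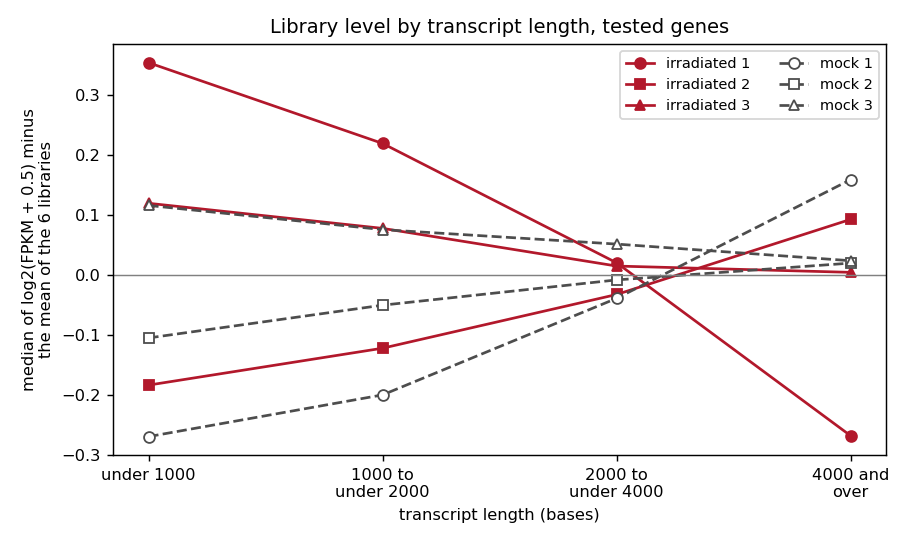
Median of log2(FPKM + 0.5) minus the mean of the 6 libraries (y axis) for tested genes in 4 classes of transcript length (x axis, bases), with 1 line per library, irradiated in red and mock in grey. Irradiated 1 goes from 0.35 in the shortest class to -0.27 in the longest, a wider range than in any other library.

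In the mock libraries Lyz2 stood far above the other 9 genes, with a mean of 15.35 ± 1.58 FPKM (SD, n = 3). S100a9 and S100a8 followed, with means of 4.25 ± 1.31 and 3.62 ± 0.37 FPKM and overlapping libraries. Pf4 averaged 1.26 and Mrc1 0.746 FPKM, and their libraries overlapped too. Lyve1, Cd163, Ngp and Ms4a7 averaged 0.518, 0.514, 0.352 and 0.307 FPKM. Lyve1 overlapped Cd163 and Ngp overlapped Ms4a7, while each Cd163 value was above each Ngp value. Ly6c2 was lowest, with a mean of 0.0621 FPKM. In the irradiated libraries Lyz2 remained first at 36.9 FPKM and Ly6c2 last at 0.200 FPKM, and Ms4a7, at 0.732 FPKM, stood next to Mrc1, at 0.964 FPKM. The 5 border macrophage genes summed to 5.01 to 8.53 FPKM in irradiated and 2.88 to 3.925 FPKM in mock libraries. Pf4, which was not called, was the largest part of the sum in each irradiated library, with 5.98, 2.25 and 2.75 FPKM.

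Lyz2 encodes lysozyme M, a bacteriolytic enzyme of monocytes, macrophages and neutrophils that activated microglia can also make (chromosome 10, 117277541 to 117282272, GRCm38.p6). It had 42.7, 23.95 and 44.15 FPKM in irradiated 1, 2 and 3, against 14.03, 17.1 and 14.9 FPKM in mock 1, 2 and 3. The groups did not overlap, and irradiated 2 lay nearest to the mock libraries. The means were 36.9 ± 11.3 FPKM in irradiated and 15.35 ± 1.58 FPKM in mock libraries (SD, n = 3 each), a log2 change of 1.19 on the log2(FPKM + 0.5) scale (SE 0.24, 95% interval 0.64 to 1.75, limma adjusted p = 0.0238). The change kept its direction without each library in turn, from 1.04 to 1.47. The call was lost without mock 1 (limma adjusted p = 0.0874), mock 2 (0.0605), mock 3 (0.0656) or irradiated 3 (0.0928). In bulk tissue, more cells of a type and more RNA per cell cannot be told apart.

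Lyz1, the gene of lysozyme P, lies 5522 bases from Lyz2 on the same chromosome and moved with it. It had 4.37, 1.83 and 2.80 FPKM in irradiated libraries, against 0.7425, 1.16 and 0.8885 FPKM in mock libraries. Each irradiated library was above all mock libraries, and the log2 change was 1.24 (SE 0.27, limma adjusted p = 0.0326), not called without irradiated 3 or any 1 of the mock libraries (limma adjusted p up to 0.112). Of the 1242 windows of 75 bases in the longest coding transcript of Lyz2, 74 (5.96%) also occur in Lyz1 transcripts. Reads of 75 nucleotides from those windows cannot be assigned to 1 of the genes, and how they were shared out is not given in the sources used here. Lyz2 stood at 9.76, 13.1 and 15.8 times the Lyz1 level in irradiated libraries and at 18.9, 14.7 and 16.8 times in mock libraries.

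The sequences before the start sites of both genes are shown because the pair moved together. They are RefSeq promoter sequences of GRCm38.p6, the 250 bases before the start, read 5′ to 3′ on the gene's strand, with the motifs AGGAAGT and TTGCNNAA in capitals on either strand. AGGAAGT holds the core bound by ETS factors such as PU.1, the master regulator of macrophage genes, and TTGCNNAA is a form of the site of C/EBP factors, which direct granulocyte and monocyte genes.
Lyz2, chr10:117282273-117282522, minus strand: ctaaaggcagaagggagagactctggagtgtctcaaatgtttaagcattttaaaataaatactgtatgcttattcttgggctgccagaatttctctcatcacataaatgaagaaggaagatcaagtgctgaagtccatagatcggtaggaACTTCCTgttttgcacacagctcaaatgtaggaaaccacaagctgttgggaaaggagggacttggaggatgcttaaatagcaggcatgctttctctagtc
Lyz1, chr10:117292869-117293118, minus strand: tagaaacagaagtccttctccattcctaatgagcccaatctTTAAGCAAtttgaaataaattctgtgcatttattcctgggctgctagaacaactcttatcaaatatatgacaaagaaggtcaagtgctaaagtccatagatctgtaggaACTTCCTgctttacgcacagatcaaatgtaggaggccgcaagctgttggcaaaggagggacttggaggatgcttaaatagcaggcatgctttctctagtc
In the 100 bases before the start 92 positions are identical between the pair, and both carry ACTTCCT, the reverse complement of AGGAAGT, at the same distance from the start.

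Pf4 encodes platelet factor 4, a chemokine that is a marker of border macrophages in brain and is also stored in platelets (chromosome 5, 90772435 to 90773383). It had 5.98, 2.25 and 2.75 FPKM in irradiated libraries, against 1.99, 0.739 and 1.04 FPKM in mock libraries. All irradiated libraries were above all mock libraries, with irradiated 2 only just above mock 1. The log2 change was 1.20 (SE 0.36, 95% interval 0.37 to 2.03), which was not called (limma adjusted p = 0.0812). Without irradiated 1 it was 0.83 and without mock 1 it was 1.49. Of 10 further platelet genes, Ppbp, the platelet chemokine gene related to Pf4, was highest in irradiated 1, at 0.196 FPKM. Of the 3 platelet genes tested 0 were called (limma, 1 higher and 0 lower with unadjusted p below 0.05), and the summed level of the list was 11.7 to 27.4 FPKM in irradiated and 5.82 to 13.8 FPKM in mock libraries, most of it Gp1bb, with Gp6 listed at 0 throughout. The part of platelet RNA in the Pf4 values was not tested.

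Ms4a7 encodes a membrane-spanning protein that separates border macrophages from microglia (chromosome 19, 11321039 to 11336146). Its level was 0.863, 0.621 and 0.712 FPKM in irradiated libraries, against 0.183, 0.139 and 0.600 FPKM in mock libraries. Mock 3 came close to irradiated 2, while mock 1 and mock 2 were far lower. The log2 change was 0.65 (SE 0.24, 95% interval 0.09 to 1.20, limma adjusted p = 0.14), ranging from 0.50 without mock 2 to 0.89 without mock 3. Ms4a6b and Ms4a6c, members of the same family expressed in macrophages, are on the list of further border macrophage genes and were both called. Ms4a6b had 1.74, 1.56 and 1.40 FPKM in irradiated and 0.571, 0.682 and 0.703 FPKM in mock libraries (log2 change 0.84, limma adjusted p = 0.0238). Ms4a6c had 2.57, 2.83 and 2.97 FPKM in irradiated and 1.14, 1.03 and 1.54 FPKM in mock libraries (log2 change 0.93, limma adjusted p = 0.0202). Both were separate between the groups by a wide margin, although neither was called without irradiated 3, mock 1 or mock 2, nor was Ms4a6b without irradiated 2 or mock 3 (limma adjusted p up to 0.0975).

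Mrc1, Cd163 and Lyve1 encode the mannose receptor, the receptor that clears haemoglobin bound to haptoglobin, and a hyaluronan receptor. Mrc1 (chromosome 2, 14229414 to 14332023) had 0.768, 1.015 and 1.11 FPKM in irradiated and 0.781, 0.7445 and 0.713 FPKM in mock libraries. Irradiated 1 lay within the mock range and the other two irradiated libraries above it, with a log2 change of 0.23 (95% interval -0.18 to 0.63, limma adjusted p = 0.451). Lyve1 (chromosome 7, 110850607 to 110862953), which lymphatic endothelium shares, had 0.601, 0.668 and 0.781 FPKM in irradiated and 0.453, 0.702 and 0.3975 FPKM in mock libraries. Mock 2 was above 2 of the 3 irradiated libraries, and the log2 change was 0.23 (95% interval -0.21 to 0.66, limma adjusted p = 0.482). Prox1, the defining factor of lymphatic endothelium, is also a gene of dentate granule neurons, and its level was 1.25 to 3.45 FPKM in irradiated and 2.12 to 3.74 FPKM in mock libraries. Ccl21a and Mmrn1, which mark lymphatic vessels more strictly, reached at most 0.0856 FPKM, for Ccl21a in irradiated 1.

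Cd163 (chromosome 6, 124304636 to 124330529) was the 1 gene of the 10 that lay lower in every irradiated library, with 0.319, 0.453 and 0.3545 FPKM, against 0.522, 0.557 and 0.464 FPKM in mock libraries. Its mean of 0.445 FPKM was below the filter. In the fit without a filter, where 1.81% of 19679 genes were called higher and 2.59% lower, its log2 change was -0.21 (95% interval -0.45 to 0.03, limma adjusted p = 0.275). Among these 19679 genes, 12.3% had all irradiated libraries above all mock libraries, as did 3 of the 10 genes, and 15.2% had all of them below, as did 1 of the 10.

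Of 20 further border macrophage genes 12 were tested, and 2 were called higher and 0 lower (limma, 3 and 1 with unadjusted p below 0.05). Their median log2 change was 0.34, against -0.02 over all genes tested. F13a1, a coagulation factor subunit of border macrophages, had 1.15, 1.11 and 1.36 FPKM in irradiated and 0.544, 1.05 and 0.655 FPKM in mock libraries (log2 change 0.47, limma adjusted p = 0.196). Cbr2, a carbonyl reductase, was at 11.7 FPKM in irradiated 1 but at 1.64 and 2.86 FPKM in irradiated 2 and 3, against 1.43, 1.46 and 2.46 FPKM in mock libraries. Folr2, the folate receptor of resident macrophages, had 1.71, 1.34 and 0.998 FPKM in irradiated and 1.16, 1.07 and 1.14 FPKM in mock libraries, and the groups overlapped. The called genes of the list were thus both Ms4a6 genes.

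**Figure D3:**
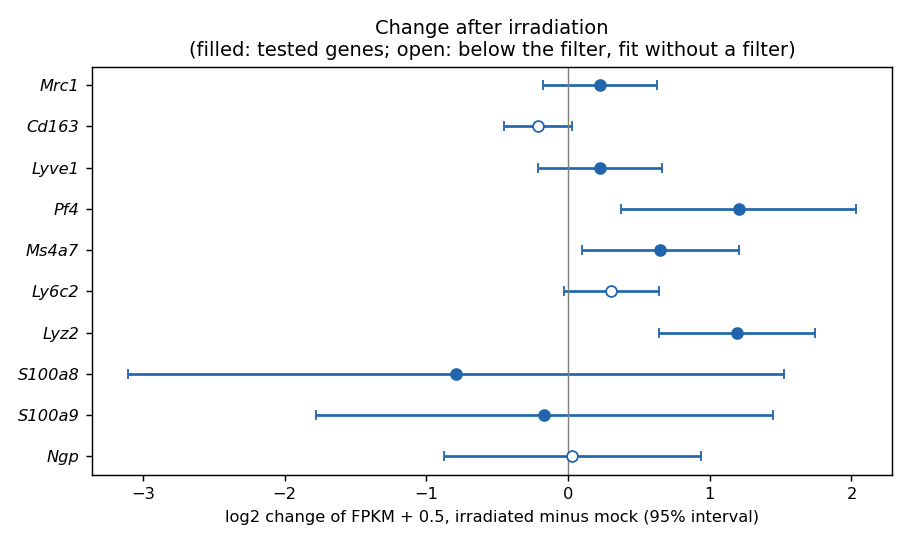
Log2 change of each of the 10 genes, irradiated minus mock (x axis, log2(FPKM + 0.5) scale), with its 95% interval from limma; filled points are tested genes and open points are genes below the filter, from the fit without a filter. The interval of Lyz2 runs from 0.64 to 1.75 and that of S100a8 from -3.10 to 1.52.

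Ly6c2 encodes a surface protein of classical monocytes (chromosome 15, 75108161 to 75112066). It had 0.340, 0.177 and 0.0822 FPKM in irradiated libraries, against 0.105 and 0.0808 FPKM in mock 1 and mock 2, and was listed at 0 in mock 3. Irradiated 3 lay within the mock range, and in the fit without a filter the gene was not called (log2 change 0.30, 95% interval -0.03 to 0.64, limma adjusted p = 0.2665). Without irradiated 1 its log2 change was 0.16. Its paralogue Ly6c1, a gene of brain endothelium, stood at 38.6, 44.05 and 38.3 FPKM in irradiated and 43.4, 44.4 and 42.1 FPKM in mock libraries. In the longest coding transcript of Ly6c2, 21.9% of the windows of 75 bases also occur in Ly6c1, and the Ly6c2 level is therefore uncertain.

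Other monocyte genes gave no common direction. Of 16 monocyte genes 5 were tested, with 0 called higher and 1 lower (limma, 0 and 2 with unadjusted p below 0.05). The 1 called gene was Vcan, the proteoglycan versican, at 0.768, 0.954 and 1.70 FPKM in irradiated and 3.25, 3.45 and 3.57 FPKM in mock libraries (log2 change -1.30, limma adjusted p = 0.0135, and 0.0507 without mock 2). Vcan is also made by oligodendrocyte precursors. Ccr2, the chemokine receptor that defines classical monocytes, had 0.199, 0.174 and 0.0619 FPKM in irradiated and 0.0602, 0.193 and 0.052 FPKM in mock libraries, and the groups overlapped.

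S100a8 and S100a9 encode the subunits of calprotectin, a calcium- and zinc-binding protein that fills the cytosol of neutrophils, and Ngp encodes a protein of neutrophil granules. S100a8 (chromosome 3, 90669071 to 90670034) had 17.45, 0.490 and 0.254 FPKM in irradiated 1, 2 and 3, against 3.65, 3.23 and 3.97 FPKM in mock 1, 2 and 3. S100a9 (chromosome 3, 90692630 to 90695721) had 15.1, 2.33 and 1.10 FPKM in irradiated libraries, against 3.21, 3.83 and 5.73 FPKM in mock libraries. Ngp (chromosome 9, 110419808 to 110423012) had 1.21, 0.194 and 0.0514 FPKM in irradiated libraries, against 0.296, 0.414 and 0.345 FPKM in mock libraries. For all 3 genes irradiated 1 was the highest and irradiated 3 the lowest of the 6 libraries, and irradiated 2 was below every mock library. Relative to the mock mean, irradiated 1 had 4.825 times the S100a8, 3.55 times the S100a9 and 3.44 times the Ngp level, whereas irradiated 3 had 0.0702, 0.259 and 0.146 times.

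With such opposed libraries the group means say little. S100a8 averaged 6.06 ± 9.86 FPKM in irradiated and 3.62 ± 0.37 FPKM in mock libraries (SD, n = 3 each), yet its log2 change was -0.79 (SE 1.01, 95% interval -3.10 to 1.52, limma adjusted p = 0.653). The sign of the mean difference and that of the log2 change differ, and irradiated 1 carries the mean. Without irradiated 1 the log2 change of S100a8 was -2.25 and was called (SE 0.20, limma adjusted p = 0.00107), and without irradiated 3 it was 0.04. For S100a9 the log2 change was -0.17 (95% interval -1.78 to 1.45, limma adjusted p = 0.902), with -1.12 without irradiated 1 (limma adjusted p = 0.0564) and 0.52 without irradiated 3. For Ngp, below the filter, it was 0.03 in the fit without a filter (95% interval -0.88 to 0.94, limma adjusted p = 0.973), and -0.46 when irradiated 1 was also left out (0.14).

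S100a8 and S100a9 are neighbours 22595 bases apart and share 0 windows of 75 bases. The 250 bases before each start site of the 3 neutrophil genes are shown as for the lysozyme genes, since these genes ranked irradiated 1 and irradiated 3 alike.
S100a8, chr3:90668821-90669070, plus strand: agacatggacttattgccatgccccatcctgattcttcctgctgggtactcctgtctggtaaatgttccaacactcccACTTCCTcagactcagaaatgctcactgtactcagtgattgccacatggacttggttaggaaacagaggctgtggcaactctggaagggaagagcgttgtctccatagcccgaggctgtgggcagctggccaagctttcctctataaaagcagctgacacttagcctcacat
S100a9, chr3:90695722-90695971, minus strand: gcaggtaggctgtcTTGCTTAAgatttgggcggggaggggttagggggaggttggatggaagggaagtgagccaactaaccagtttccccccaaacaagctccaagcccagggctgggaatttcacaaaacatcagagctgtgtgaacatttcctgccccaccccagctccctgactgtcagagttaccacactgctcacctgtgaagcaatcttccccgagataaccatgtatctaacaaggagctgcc
Ngp, chr9:110419558-110419807, plus strand: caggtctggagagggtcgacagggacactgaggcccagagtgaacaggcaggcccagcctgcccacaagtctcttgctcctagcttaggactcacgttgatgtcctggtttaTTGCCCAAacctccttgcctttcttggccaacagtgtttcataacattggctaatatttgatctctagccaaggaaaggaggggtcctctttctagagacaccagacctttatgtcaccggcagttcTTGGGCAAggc
Promoters were given for 9 of the 10 genes, Lyve1 being the exception. AGGAAGT occurred, on either strand, in 5 of them (Mrc1, S100a8, Pf4, Lyz2 and Ly6c2) and in 7.69% of 32851 RefSeq promoters over the same 250 bases. TTGCNNAA occurred in 3 of them (S100a9, Pf4 and Ngp) and in 9.56% of all promoters. Both motifs were chosen with the sequences known, so these counts are no test of enrichment. The matches are a description of letters and show no binding.

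Other neutrophil genes were low and did not share 1 pattern. Camp, the gene of an antimicrobial peptide, had 3.98 FPKM in irradiated 1, 0.149 FPKM in irradiated 2 and was listed at 0 in irradiated 3, against 0.504 and 0.630 FPKM in mock 1 and mock 3 and a listing at 0 in mock 2. Wfdc21 was at 1.63 FPKM in irradiated 1, was listed at 0 in irradiated 2 and 3 and in mock 1, and had 0.252 and 0.248 FPKM in mock 2 and mock 3. Of the 28 further neutrophil genes listed, 26 were above 0 in some library, and 10 of these had their highest value in irradiated 1, where 19.2% of all such genes did. Stfa1 and Stfa2l1 were listed at 0 throughout. Other genes of the list ran differently. Lcn2, lipocalin 2, which reactive astrocytes also make, had 0.969, 1.23 and 2.83 FPKM in irradiated and 0.714, 0.659 and 0.840 FPKM in mock libraries, and was highest in irradiated 3. Prtn3, a granule protease, was also highest in irradiated 3, at 5.00 FPKM. Mpo, the gene of myeloperoxidase, was below the filter, with 0.307, 0.158 and 0.264 FPKM in irradiated libraries, against 0.0306 and 0.0662 FPKM in mock 1 and mock 2 and a listing at 0 in mock 3. It was higher in every irradiated library and was called in the fit without a filter (log2 change 0.48, limma adjusted p = 0.0401). Whether the call of Mpo holds without single libraries was not examined. Of the 7 genes tested, 0 were called (limma, 2 higher and 0 lower with unadjusted p below 0.05).

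Red cell RNA was low in the same 2 irradiated libraries. Hba-a1, an alpha-globin gene, had 18.85, 0.918 and 4.57 FPKM in irradiated libraries, against 17.7, 10.4 and 18.7 FPKM in mock libraries. Irradiated 2 and 3 were below every mock library, as for the neutrophil genes, while irradiated 1 was only just above mock 3. Relative to the mock mean irradiated 1 had 1.21 times the Hba-a1 level and 1.68 times that of Alas2, the haem synthesis enzyme of red cell precursors, against 3.44 to 4.825 times for the 3 neutrophil genes. The 6 red cell genes summed to 1.05 to 19.7 FPKM in irradiated and 10.8 to 19.25 FPKM in mock libraries, almost all of it Hba-a1. The part of blood or marrow cells left in the extracts was not tested.

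Some olfactory bulb genes also set irradiated 1 apart from irradiated 2 and 3. Doc2g, a gene of bulb projection neurons, had 123.4, 3.96 and 4.26 FPKM in irradiated libraries, against 94.4, 6.22 and 117.7 FPKM in mock libraries. Tbx21, a transcription factor gene of the same neurons, had 6.25, 0.0493 and 0.0608 FPKM in irradiated libraries, against 3.50, 0.0192 and 3.37 FPKM in mock libraries. Both were also low in mock 2, where S100a8, S100a9 and Ngp had 3.23, 3.83 and 0.414 FPKM. The 8 bulb genes listed did not share 1 pattern. Among irradiated libraries, Cdhr1, Eomes, Calb2, Trh and Th were also highest in irradiated 1, but Slc17a7 was highest in irradiated 3. Th fell in steps, with 71.7, 45.8 and 31.8 FPKM in irradiated 1, 2 and 3. Calb2 had 238.9, 236.4 and 316.3 FPKM in mock 1, 2 and 3, and Eomes had 7.67, 2.85 and 7.77 FPKM. The part of dissection in the neutrophil values was not tested.

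**Figure D4:**
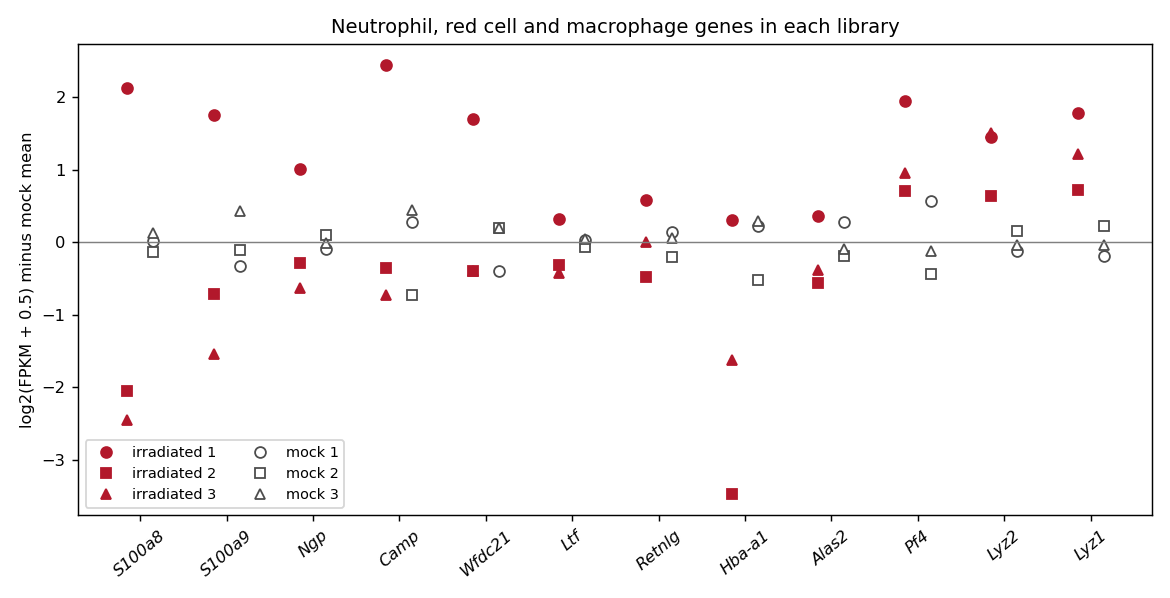
Level of neutrophil genes, red cell genes (Hba-a1 and Alas2), Pf4 and the lysozyme genes in each library, as log2(FPKM + 0.5) minus the mean of the 3 mock libraries (y axis); filled red symbols are irradiated and open grey symbols mock libraries, with the shape giving the replicate. For S100a8 irradiated 1 stands above and irradiated 2 and 3 far below the mock libraries, whereas for Lyz2 all 3 irradiated libraries stand above them.

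Transcripts of S100a8 and S100a9 have 486 and 519 bases and belong to the class under 1000 bases, whose median stood at 0.35, -0.18 and 0.12 in irradiated 1, 2 and 3. On the same scale, the deviation from the mean of the 6 libraries was 2.52, -1.66 and -2.05 for S100a8 and 1.83, -0.63 and -1.45 for S100a9. The part of transcript length in the split among the irradiated libraries was not tested. With each library corrected for transcript length and GC content, an alternative added after the data were seen, the log2 change was -0.92 for S100a8 (limma adjusted p = 0.556) and -0.30 for S100a9 (0.792). In the same corrected values Lyz2 changed by 1.11 (limma adjusted p = 0.0103), Pf4 one of 0.98 (0.102) and Mrc1 one of 0.48 (0.0851). The log2 change of Mrc1 was thus 0.23 before and 0.48 after correction, and the call of Lyz2 stayed.

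Genes of all macrophages, microglia included, were compared with the border genes. Of 14 genes shared by macrophages 3 were called higher and 0 lower (limma, 9 and 0 with unadjusted p below 0.05, against 11.7% and 13.9% of all genes). Their median log2 change was 0.82, and 0.52 with the length and GC correction. C1qc, a chain of complement C1q, had 99.02, 67.4 and 92.4 FPKM in irradiated and 40.6, 37.2 and 52.5 FPKM in mock libraries (log2 change 0.98, limma adjusted p = 0.0281). For Laptm5, a lysosomal protein of leukocytes, the log2 change was 1.00 (limma adjusted p = 0.0215) and Fcer1g, an Fc receptor chain, one of 0.81 (0.0482). All 3 calls were lost without irradiated 3, mock 1 or mock 2, and that of Fcer1g also without irradiated 1 or mock 3 (limma adjusted p up to 0.139). Of 13 microglia genes 1 was called higher, Fcrls (log2 change 1.05, limma adjusted p = 0.0208, lost without irradiated 3, mock 1 or mock 2), and 0 lower (4 and 0 with unadjusted p below 0.05), with a median of 0.14, which was 0.03 without mock 2, 0.04 without irradiated 1, 0.08 without irradiated 3 and 0.23 without irradiated 2. P2ry12, the defining purine receptor of microglia, had 9.36, 7.86 and 9.72 FPKM in irradiated and 8.41, 8.26 and 7.56 FPKM in mock libraries, and the groups overlapped. The summed microglia list was 140.9 to 182.7 FPKM in irradiated and 136.2 to 156.2 FPKM in mock libraries, so Lyz2 rose in libraries where the microglia sum overlapped between the groups.

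The signals that draw or keep these cells were read in the same libraries. Of 16 chemoattractants and their receptors 6 were tested, and 3 were called higher and 0 lower (limma, 3 and 0 with unadjusted p below 0.05). Ccl12, a monocyte-attracting chemokine of the mouse, had 6.82, 2.89 and 2.20 FPKM in irradiated and 0.804, 0.673 and 0.590 FPKM in mock libraries (log2 change 1.78, limma adjusted p = 0.0194, lost without mock 1, 2 or 3 at up to 0.0673). Ccl5, which attracts T cells and monocytes, had 4.39, 2.31 and 1.42 FPKM in irradiated and 0.195, 0.136 and 1.04 FPKM in mock libraries (log2 change 1.76, limma adjusted p = 0.0403, tested only through its irradiated values and lost without irradiated 1 or 2 or mock 1 or 2). Cx3cl1, the neuronal ligand of the microglial receptor Cx3cr1, had 187.6, 200.8 and 261.4 FPKM in irradiated and 115.4, 46.1 and 109.7 FPKM in mock libraries (log2 change 1.35, limma adjusted p = 0.0493), and was not called when any 1 library was left out (up to 0.171). Hippocampus genes were higher in the same irradiated libraries, and the part of regional makeup in the Cx3cl1 change was not tested. The neutrophil chemoattractants Cxcl1, Cxcl2 and Cxcl5 all stayed below the filter.

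In the growth factor axis of macrophages and granulocytes, 1 of 5 tested genes was called higher and 0 lower (limma, 1 and 0 with unadjusted p below 0.05). It was Il34, a neuronal ligand of the Csf1 receptor, with 39.5, 31.2 and 51.5 FPKM in irradiated and 19.5, 10.4 and 19.5 FPKM in mock libraries (log2 change 1.31, limma adjusted p = 0.0289, lost without irradiated 3, mock 1 or mock 2 at up to 0.108). Csf1r itself had 13.9, 13.8 and 18.2 FPKM in irradiated and 19.5, 13.7 and 20.5 FPKM in mock libraries. Il34 is a forebrain gene as well, and hippocampus genes were higher in the same libraries, which was not tested as a part of its change. Of 7 tested leukocyte adhesion genes and 9 tested myeloid transcription factors 0 were called (limma, 3 higher and 0 lower, and 4 higher and 1 lower, with unadjusted p below 0.05). Spi1, which encodes PU.1, had 4.84, 3.38 and 5.51 FPKM in irradiated and 2.875, 2.13 and 2.895 FPKM in mock libraries (log2 change 0.68, limma adjusted p = 0.0882), with no overlap. Cebpe, the factor of late neutrophil precursors, was listed at 0 in all libraries except mock 3, at 0.0781 FPKM.

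Partners of these genes in S100 and haem handling followed. Of 5 tested receptors and adaptors of calprotectin, among them Cd14 and Myd88, 0 were called (limma, 0 in either direction with unadjusted p below 0.05), and Tlr4 was below the filter. Of 6 tested genes of haemoglobin and haem handling, 1 was called lower and 0 higher (limma, 1 and 0 with unadjusted p below 0.05). It was Slc40a1, the iron exporter ferroportin, with 2.03, 2.24 and 1.39 FPKM in irradiated and 3.67, 3.57 and 3.28 FPKM in mock libraries (log2 change -0.76, limma adjusted p = 0.0476), not called without irradiated 2 or 3 or any 1 mock library (up to 0.162).

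Cells of the compartments that house border macrophages were checked too. Of 10 meningeal fibroblast genes 1 was called higher and 1 lower. Dcn, decorin, had 37.8, 24.1 and 40.2 FPKM in irradiated and 14.45, 18.4 and 17.1 FPKM in mock libraries (log2 change 0.98, limma adjusted p = 0.0324, lost without irradiated 1 or 3 or any 1 mock library), while for Slc47a1, an organic cation exporter, the log2 change was -0.71 (limma adjusted p = 0.04, lost without any 1 library). The summed list was 103.3 to 178.9 FPKM in irradiated and 96.8 to 171 FPKM in mock libraries. Of 13 choroid plexus genes 0 were called higher and 2 lower (limma, 0 and 6 with unadjusted p below 0.05, against 11.7% and 13.9% of all genes), with Kcne2 at a log2 change of -1.56 (limma adjusted p = 0.0101) and Enpp2 at -1.07 (0.0302, not called without irradiated 1, 2 or 3 or mock 1 or 3). Of 10 endothelial genes 0 were called (limma, 0 higher and 3 lower with unadjusted p below 0.05). Of 2 tested lymphocyte genes both were higher, Zap70 by 1.40 on the log2 scale (limma adjusted p = 0.00421) and Lck by 0.87 (0.0468, tested only through its irradiated values and not called without irradiated 1 or 3 or any 1 mock library), whereas Cd3e and Cd8a reached at most 0.119 FPKM, for Cd3e in mock 3.

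The tested genes most like Lyz2 over the 6 libraries were B3galt4, a galactosyltransferase gene (Pearson r = 0.997 on the log2 scale), and Dcn (0.996). Most like S100a8 were Col9a2, a collagen chain, and Scpep1, a serine carboxypeptidase, with 6.52 and 10.9 FPKM in irradiated 1 and narrower ranges than S100a8. These were picked as the highest of 14585 coefficients over 6 libraries and describe shape alone.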

How the data were processed

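Total RNA of brains from 3 irradiated and 3 mock-irradiated mice was depleted of ribosomal RNA and sequenced as stranded single-end reads of 75 nucleotides, per the labels' protocols. The authors deposited FPKM values, 1 column per library. The submitters' processing notes name TopHat, Cufflinks, Cuffdiff and the build mm10, with no version. After removal of 1 leftover header line, 23057 genes remained, summing to 472450 to 625782 FPKM per library. Among genes under 0.05 FPKM no ratio to mock 1 was shared by more than 3.42% (to 0.01 on the log2 scale). Reads per gene could therefore not be recovered. A range of 30 to 40 M reads is on record, but the exact depth of each library is unknown.

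The 14585 genes averaging 0.5 FPKM or more across libraries entered a limma 3.58.1 fit (R 4.3.3) of log2(FPKM + 0.5) on group alone, with a trended prior. Tests were two-sided, with Benjamini-Hochberg adjustment over all 14585 genes. A call is an adjusted p under 0.05. Fold changes on this scale understate those of low genes. An exact permutation test of 3 against 3 cannot go below 0.1. Named were the 10 genes, up to 4 called genes of each related list, otherwise up to 2 of high level, the paralogues Lyz1 and Ly6c1, and the genes most alike by Pearson r. Other genes were chosen after their values were seen. The 10 genes and the lists were chosen with earlier results of these data known, and the motifs with the sequences known. Transcript lengths are those of the longest coding transcript in GENCODE vM21, present for 96.3% of tested genes. Coordinates and promoters are from RefSeq on GRCm38.p6, the assembly of mm10. Nothing in the labels says that equal replicate numbers share a litter or day.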

Additional observations from a re-analysis of the deposited data

How the results depend on the processing

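Alternatives were pseudocounts of 0.1 and 1, no filter, a filter at 1 FPKM, median centring, quantile scaling, a robust prior, a replicate block, and fits that drop 1 library. Chosen after seeing the data were the length and GC correction and, for genes below the filter, dropping 1 library with no filter. The count of the 10 genes called higher, 1, was 0 to 1 without each library in turn, and the count called lower, 0, was 0 to 1, the 1 being S100a8 without irradiated 1. Correlations of deviations were -0.33, 0.19 and 0.20 for same-numbered libraries and ran from -0.49 to 0.23 for the other pairs. With 3 libraries per group they cannot decide whether equal numbers share a litter or day. With the replicate block Lyz2 was not called (adjusted p = 0.0562) and Pf4 was (0.0239), with 401 genes higher and 394 lower. Over the whole table the counts of 508 higher and 618 lower were 148 to 671 and 254 to 684 without each library, and the length and GC correction gave 875 higher and 926 lower. Direction turned for S100a8 without irradiated 3 (0.0381, with -2.25 without irradiated 1), for S100a9 without irradiated 2 (0.11), irradiated 3 (0.518) or mock 3 (0.0456), with -1.12 without irradiated 1, and for Ngp without irradiated 1 (-0.46) or mock 1 (-0.0182). The cause was not tested. Lyz1 was not called without a filter (adjusted p = 0.0624) or with the block (0.0766). The other 7 genes kept their direction under every alternative run. Of the other named genes called, Fcer1g, Dcn, Slc47a1, Enpp2, Lck, Slc40a1, Il34, Ccl5 and Cx3cl1 were not called without a filter, Slc40a1 with median centring, Slc47a1, Slc40a1 and Cx3cl1 with quantile scaling, Fcer1g and Slc40a1 with the length and GC correction, Fcer1g, Lck, Slc40a1 and Cx3cl1 with a pseudocount of 0.1, and Ms4a6b, Fcer1g, Dcn, Slc47a1, Enpp2, Lck, Slc40a1, Ccl5 and Cx3cl1 with the replicate block. The exact number of reads behind the low values of Cd163, Ngp and Ly6c2 is unknown. At the range of depth on record the lowest, such as Ngp at 0.0514 FPKM in irradiated 3, may rest on few reads. Ratios formed from such values are uncertain.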
